A study of Xenopus laevis with 4 samples.

Results

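Fibroblast growth factors (FGFs) are secreted ligands that bind receptor tyrosine kinases on the cell surface and, through the docking protein Frs2 and the adaptor Grb2, switch on the Ras and ERK kinase cascade. The cascade turns on ETS transcription factors of the PEA3 group and a set of inhibitors, among them the Sprouty and Spred proteins and dual-specificity phosphatases that remove the activating phosphates from ERK, so that these genes serve both as readouts and as brakes of the pathway. In the early frog embryo FGF signaling is known for its part in forming mesoderm and in neural induction. The genes described here were taken by symbol from the platform annotation of a Xenopus laevis Affymetrix array. They are the FGF ligands, the FGF receptors, the Sprouty, Spred, dual-specificity phosphatase and ETS variant families, and frs2, frs3, grb2, sos1, il17rd, flrt3 and egr1, counted with the suffixes L and S, which mark the homeologous copies in this allotetraploid frog. The rule found 74 probe sets for 56 gene symbols among 32539 probe sets, 15495 of which had 1 symbol. The names sos1, il17rd and egr1 had no probe set under this rule. 4 of the probe sets, those of fgfr1op2.S, spryd3.L, spryd4.S and spryd7.S, share letters with the families but do not encode FGF receptors or Sprouty proteins, and 70 remain without them.

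The samples were explants of presumptive ectoderm (animal caps) from Xenopus laevis embryos injected at the 2-cell stage with synthetic RNA. The caps were cut at stage 9 to 10, kept in Danilchik's medium with 0.1% BSA and harvested for total RNA at the equivalent of stage 12. ICD RNA was on 2 arrays, DBM RNA on 1 array and HMM RNA on 1 array. By common usage ICD stands for the Notch intracellular domain, a form of the receptor that signals without a ligand, and DBM for a mutant of the Notch effector rbpj that cannot bind DNA and blocks signaling. The labels do not say what HMM stands for. Uninjected caps were not analysed here, and each comparison sets injected caps against other injected caps. No RNA dose, strain or clutch is labelled, and the ICD arrays are not stated to come from different clutches. All p-values thus reflect the spread seen between these arrays, and that spread may be technical.

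Values are MAS5 signals rescaled to the same trimmed mean on every array, and log2 differences are on the scale log2(signal + 17.99), which understates the change of dim genes. ICD replicate 1 stood apart before rescaling, with a trimmed mean of 150.7 against 376.8 to 408.9 on the other arrays. Its poly-A spike-ins were at 31.8% of their mean on the other arrays, and its hybridization spike-ins at 110%. Of 19 ectoderm and epidermis marker symbols 18 passed the signal filter of 41.4, with a summed signal of 85057 and 59872 on the ICD arrays, 84425 with DBM and 71054 with HMM. A few bright genes carry that sum. When ICD was set against the average of DBM and HMM, 3 of the 18 rose and 4 fell, beside 2.22% and 2.58% of 7989 genes. foxi1.L (26.8-fold), itln1.L (10.7-fold), grhl3.S and krt12.4.S were lower with ICD, and tp63.S (6.38-fold), foxi4.2.L and dlx5.L were higher. Among their other copies, grhl3.L was lower but did not pass (log2 difference -0.68), and krt12.4.L and foxi4.2.S overlapped between the groups. The mesoderm and endoderm markers sox17a, sox17b.1, mixer, mix1, gsc and myod1 had all 12 of their probe sets below the filter. They are part of wider lists, on which 17 of 23 mesoderm and 6 of 16 endoderm symbols were below it. By its definition the filter leaves 40% of all probe sets below it, counted by probe set and not by symbol. The mesoderm and endoderm symbols above it are described further below. In bulk explants, fewer cells of a type and less RNA per cell cannot be told apart.

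When ICD was compared with the average of DBM and HMM, 38 of the 74 probe sets, for 28 gene symbols, passed the signal filter and could be tested. Of these 5 rose with ICD and 0 fell at a limma adjusted p of 0.05, beside 1.90% of all tested probe sets that rose and 2.04% that fell. At an unadjusted p under 0.05 in limma, 14 were higher and 1 lower. Of all 19523 tested probe sets, 1146 were higher and 1615 lower at that level. The 5 probe sets carry 4 gene symbols, the ligand gene fgf3.L, the receptor gene fgfr2.L and the PEA3 group genes etv1.S and etv4.L. All 3 called PEA3 group probe sets were made from 1 source sequence, so etv1.S and etv4.L are not separate calls. Of the 38, 16 (42.1%) had both ICD arrays above DBM and HMM, where 19.3% of all tested probe sets did, and 8 (21.1%) had both ICD arrays below, where 22.8% did. Several probe sets read the same gene, so these counts are not of independent genes. The counts of higher probe sets include fgf3.L and dusp1.S, whose means passed the filter only through the ICD arrays. Likewise the 8 lower ones include frs3.S, dusp6.S, dusp22a.L and dusp23.L, whose means passed it only through DBM and HMM. The 1 lower at an unadjusted p was dusp6.S. Also among the 8 are fgfr1op2.S and spryd7.S, which match by letters alone. Without DBM, both etv1.S probe sets still passed (limma adjusted p = 0.0337 and 0.0418) and the other 3 did not, and without HMM 0 of the 5 passed (11 of the 38 at an unadjusted p under 0.05). When DBM and HMM formed 1 group, 2 of the 5 passed, and with either ICD array then left out 0 passed, against 12 at an unadjusted p under 0.05 in limma without ICD replicate 1 and 8 without ICD replicate 2.

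**Figure D1:**
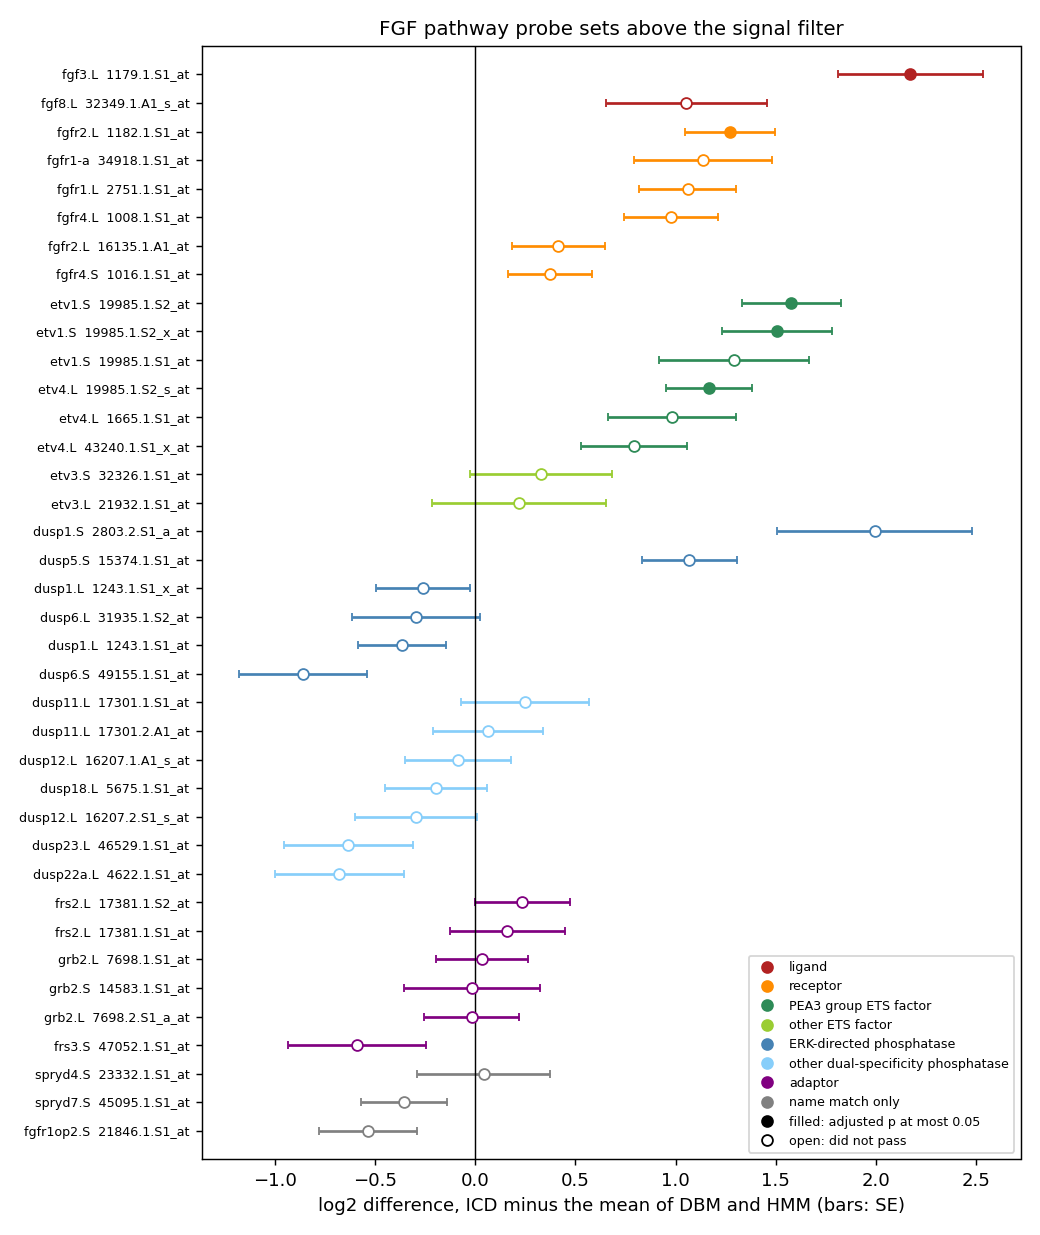
Log2 difference of ICD minus the mean of DBM and HMM (horizontal axis) for the 38 probe sets above the signal filter, grouped and coloured by role, with bars for the limma SE. Filled points passed an adjusted p of 0.05: fgf3.L, 1 probe set of fgfr2.L, 2 of etv1.S and 1 of etv4.L, all to the right of 0.

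Of 16 ligand probe sets for 12 gene symbols, those of fgf3.L and fgf8.L passed the filter. The ligand role was set by name and takes in fgf12.S and fgf13.L, which encode members of the family that are not secreted. fgf3.L, which encodes a secreted FGF expressed in the early embryo and later in the hindbrain, had signals of 149 and 239 on the ICD arrays, 31.2 with DBM and 25.0 with HMM. Both ICD arrays lay well above the other arrays, whose signals were under the filter level. The mean of fgf3.L thus passed the filter only through the ICD arrays, the group where it is high. The log2 difference was 2.17 ± 0.36 (SE; ICD n = 2, DBM and HMM n = 1 each), a 4.51-fold rise (limma adjusted p = 0.0259). Because DBM and HMM were dim, its size depended on the settings and ran from 1.39 to 2.61.

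fgf8.L, whose product is an FGF of the gastrula margin and of neural signaling centres, had 4 probe sets. The 1 above the filter, Xl2.32349.1.A1_s_at, read 70.2 and 146 on the ICD arrays, 62.1 with DBM and 23.9 with HMM. ICD replicate 1 was close to DBM, and the difference of 1.05 ± 0.40 did not pass (adjusted p = 0.288). The other fgf8.L probe sets stayed below the filter. Xl2.20011.1.S1_at had both ICD arrays above, at 13.3 and 29.7 with ICD, 13.1 with DBM and 7.16 with HMM. Xl2.20011.2.S1_a_at overlapped between the groups with 14.9 and 47.9 with ICD, 45.3 with DBM and 24.5 with HMM. Xl2.20011.2.A1_at overlapped too, at 2.84 and 2.80 with ICD, 2.26 with DBM and 7.51 with HMM. The probe sets of fgf8.L therefore gave no common order of the groups, and those that overlapped were dim.

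The remaining 14 ligand probe sets had signals between 0.612 and 47.9 on every array, many of them under the log2 offset. Among them fgf20.L had 44.6 and 41.6 with ICD, 9.59 with DBM and 12.5 with HMM, so that both ICD arrays were higher. It did not pass when the filter was dropped (log2 difference 1.07, limma adjusted p = 0.188). fgf20 is a ligand of the FGF9 subfamily. fgf4.S, a copy of the mesodermal FGF gene once called eFGF, had 1.53 and 0.612 with ICD, 8.62 with DBM and 18.1 with HMM, the reverse order at levels too low to test. Of the 14, 4 had both ICD arrays above the others, 3 had both below and 7 overlapped. Over all probe sets below the filter, 20.0% had both above and 14.6% had both below. Mean signals of fgf1.L, fgf2, fgf7.L, fgf9.S, fgf10.S, fgf12.S and fgf13.L stayed below the filter as well.

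**Figure D2:**
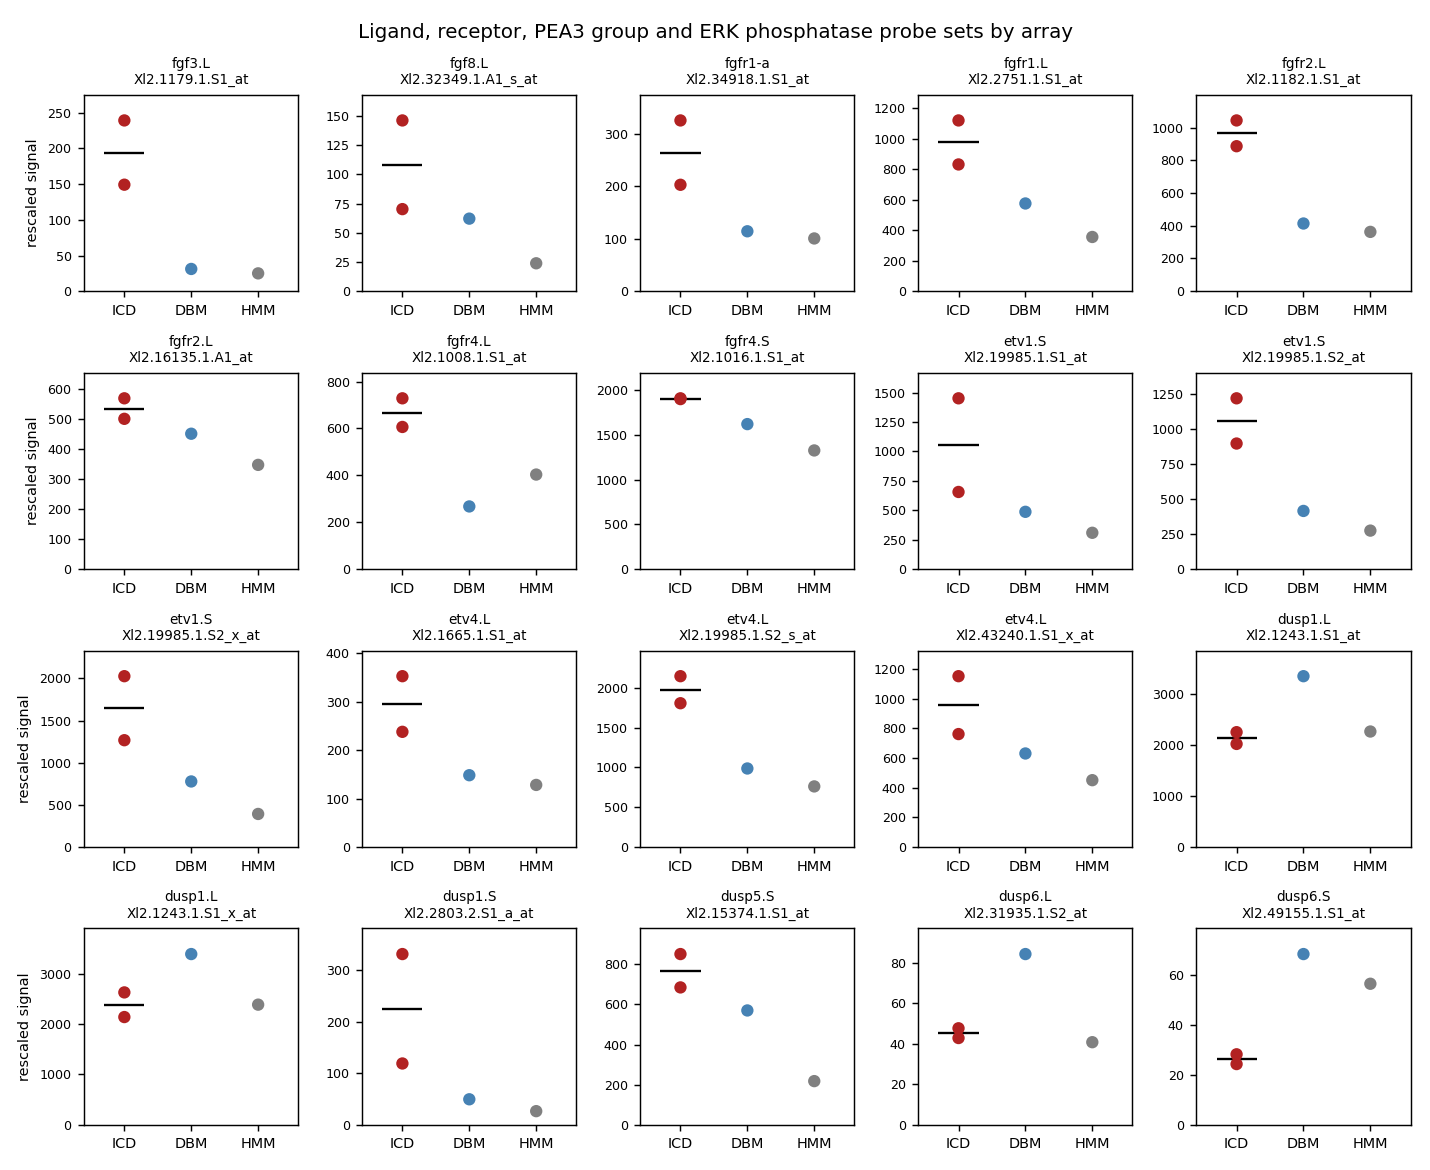
Rescaled MAS5 signal (vertical axis, linear, from 0) of each ligand, receptor, PEA3 group and ERK phosphatase probe set above the filter, with 1 point per array and a bar at the mean of the 2 ICD arrays. ICD points lie above DBM and HMM for the ligands, receptors and PEA3 group genes, but not for dusp1.L, dusp6.L or dusp6.S.

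FGF receptors are tyrosine kinases that dimerize on binding a ligand. Of 12 probe sets 6 passed the filter, and on those both ICD arrays lay above DBM and HMM, beside 19.3% of all tested probe sets. Their median log2 difference was 1.02 beside -0.01 over all tested probe sets. Without the filter the median of the receptor probe sets was 0.39. fgfr2.L, whose receptor is used in epithelia, was the 1 receptor gene that rose. Its probe set Xl2.1182.1.S1_at read 886 and 1043 with ICD, 414 with DBM and 363 with HMM, 2.42-fold higher (log2 difference 1.27 ± 0.22, limma adjusted p = 0.0303). The other fgfr2.L probe set, Xl2.16135.1.A1_at, read 502 and 570 with ICD, 452 with DBM and 348 with HMM, and its difference of 0.41 ± 0.23 did not pass (adjusted p = 0.540). The probe sets of this gene thus had the same order of groups and differed in size, and the lower one turned to -0.28 on deposited signals without rescaling, where the median of all probe sets was -0.66.

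fgfr1.L, the receptor gene most studied in frog mesoderm and neural tissue, read 830 and 1118 with ICD, 575 with DBM and 355 with HMM. Both ICD arrays were higher, but the difference of 1.06 ± 0.24 did not pass (adjusted p = 0.0702). A further probe set annotated fgfr1-a, whose Entrez Gene identifier was not found in the RefSeq table, read 203 and 325 with ICD, 114 with DBM and 100.4 with HMM (1.14 ± 0.34, adjusted p = 0.161). The copies of fgfr4 differed in size: fgfr4.L read 729 and 606 with ICD, 267 with DBM and 403 with HMM (0.98 ± 0.24, adjusted p = 0.0849). fgfr4.S read 1912 and 1903 with ICD, 1623 with DBM and 1328 with HMM (0.37 ± 0.21, adjusted p = 0.536). None of these 4 probe sets passed. Receptor probe sets below the filter were those of fgfr3.L, fgfr3.S, fgfrl1.L and fgfrl1.S, the last 2 encoding a receptor-like protein without a kinase domain. They ranged from 1.37 to 55.8, with 2 of 6 having both ICD arrays above and the other 4 overlapping. Over all probe sets below the filter, 20.0% had both ICD arrays above.

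ETS factors of the PEA3 group, etv1 and etv4, are widely used as readouts of FGF signaling. On 6 of 6 of their probe sets, which stand for 2 genes, both ICD arrays lay above DBM and HMM, beside 19.3% of all tested probe sets. DBM lay above HMM on these 6, beside 76.3% of the 38 tested members and 47.6% of all tested probe sets. The 3 probe sets that rose were Xl2.19985.1.S2_at and Xl2.19985.1.S2_x_at of etv1.S and Xl2.19985.1.S2_s_at of etv4.L. They were made from 1 source sequence according to the platform annotation, and the suffixes s and x mark probe sets that can read related transcripts, so they do not count as separate evidence for etv1.S and etv4.L.

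The etv1.S probe set Xl2.19985.1.S2_at read 898 and 1222 with ICD, 416 with DBM and 275 with HMM, a 2.99-fold rise (1.58 ± 0.25, limma adjusted p = 0.0200). Xl2.19985.1.S2_x_at read 1266 and 2026 with ICD, 777 with DBM and 392 with HMM (1.51 ± 0.27, adjusted p = 0.0340). The third etv1.S probe set, Xl2.19985.1.S1_at, read 655 and 1451 with ICD, 487 with DBM and 309 with HMM. Its ICD arrays were far apart, and its difference of 1.29 ± 0.37 did not pass (adjusted p = 0.141).

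For etv4.L, the probe set with the shared source sequence read 1806 and 2146 with ICD, 986 with DBM and 761 with HMM, a 2.25-fold rise (1.17 ± 0.22, limma adjusted p = 0.0355). The etv4.L probe sets made from other sequences did not pass. Xl2.1665.1.S1_at read 238 and 353 with ICD, 148 with DBM and 128 with HMM (0.98 ± 0.32, adjusted p = 0.194). Xl2.43240.1.S1_x_at read 762 and 1153 with ICD, 631 with DBM and 451 with HMM (0.79 ± 0.26, adjusted p = 0.207). Thus etv4.L was higher with ICD on each of its probe sets, and passed on the 1 that shares its sequence with etv1.S. ETS factors outside the PEA3 group behaved otherwise. etv3.L, which encodes a repressor of the ETS family, read 91.9 and 221 with ICD, 157 with DBM and 92.8 with HMM, with the groups overlapping (0.22 ± 0.43). etv3.S overlapped too, at 37.8 and 64.8 with ICD, 52.4 with DBM and 23.6 with HMM. etv2.L, a regulator of blood and vessel precursors, was below the filter with 14.0 and 16.4 with ICD, 48.8 with DBM and 34.6 with HMM.

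Sprouty and Spred genes encode inhibitors that FGF signaling turns on against itself. None of their 5 probe sets passed the filter, where signals ran from 2.84 to 73.3. spry2.S had 44.2 and 73.3 with ICD, 8.46 with DBM and 9.40 with HMM, so that both ICD arrays were clearly higher. Without the filter its log2 difference was 1.48 ± 0.33, and it had the lowest limma adjusted p of the 36 dim probe sets, 0.110. spry2.L had 19.2 and 61.6 with ICD, 14.8 with DBM and 9.92 with HMM, the same order but with the ICD arrays far apart (0.85 without the filter, adjusted p = 0.589). spred1.L had 35.9 and 56.9 with ICD, 23.6 with DBM and 22.3 with HMM, again with both ICD arrays higher (adjusted p = 0.637 without the filter). The probe sets of spry1.S overlapped between the groups. Of the 36 dim probe sets of all roles, 12 (33.3%) had both ICD arrays above the others, where 20.0% of all probe sets below the filter did, and 7 had both below, where 14.6% did.

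**Figure D3:**
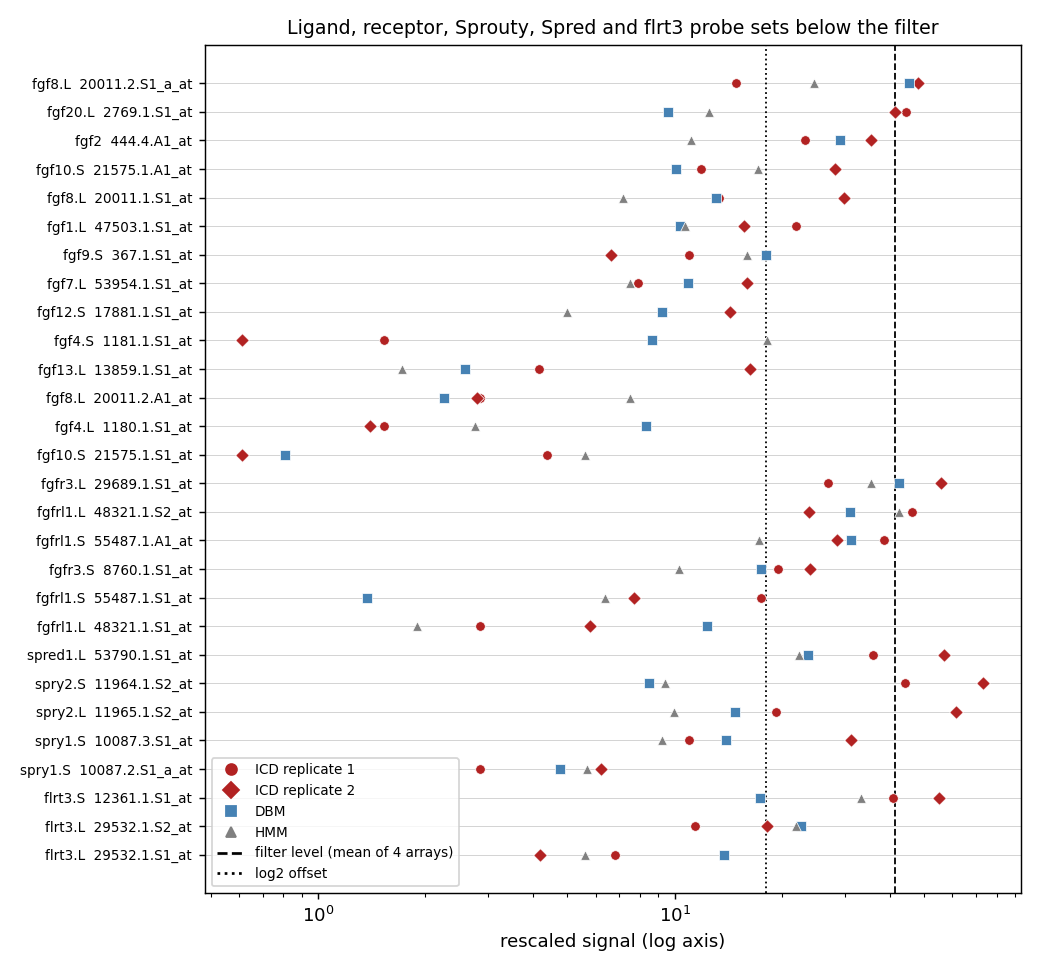
Rescaled signal on each array (horizontal axis, log scale) of ligand, receptor, Sprouty, Spred and flrt3 probe sets whose mean lay below the filter (dashed line; the dotted line is the log2 offset). For spry2.S the ICD arrays, at 44.2 and 73.3, lie to the right of DBM and HMM, at 8.46 and 9.40, while most ligand probe sets lie at or under the offset.

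The phosphatases directed at ERK had differences of both signs. Their 6 tested probe sets, for 5 gene symbols, had a median log2 difference of -0.28 beside -0.01 over all tested probe sets. Of the 6, 0 passed, where 1.90% of all tested probe sets rose and 2.04% fell. At an unadjusted p under 0.05 in limma 2 were higher and 1 lower, beside 1146 and 1615 of all 19523 tested probe sets. dusp6, which encodes the cytoplasmic ERK phosphatase best known as an FGF feedback gene, was not higher with ICD on either copy. dusp6.L read 47.7 and 42.9 with ICD, 84.3 with DBM and 40.8 with HMM. dusp6.S read 24.3 and 28.2 with ICD, 68.2 with DBM and 56.3 with HMM. dusp6.L overlapped between the groups, while both ICD arrays were lower for dusp6.S (-0.86 ± 0.32, limma adjusted p = 0.270). The ICD signals of both copies lie close to or under the filter level. The mean of dusp6.S passed the filter only through DBM and HMM, the groups where it is high.

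dusp5.S encodes a nuclear ERK phosphatase. It read 685 and 851 with ICD, 570 with DBM and 218 with HMM. DBM was close to the ICD arrays and HMM was well below them, and the difference from their mean was 1.07 ± 0.24 (adjusted p = 0.0637). The copies of dusp1, a nuclear phosphatase gene induced early by many stimuli, had differences of opposite sign. dusp1.S read 119 and 331 with ICD, 49.6 with DBM and 26.6 with HMM (1.99 ± 0.49, adjusted p = 0.0862). As with fgf3.L, the mean of dusp1.S passed the filter only through the ICD arrays, the group where it is high. dusp1.L read 2246 and 2016 with ICD, 3341 with DBM and 2259 with HMM on Xl2.1243.1.S1_at (-0.37 ± 0.22, adjusted p = 0.587), and a similar set of values on its second probe set. Neither copy passed, and the difference between copies was not tested. dusp4.S was below the filter, at 30.4 and 17.5 with ICD, 37.6 with DBM and 66.5 with HMM. The dual-specificity phosphatases not directed at ERK, those of dusp11.L, an RNA phosphatase gene, dusp12.L, dusp18.L, dusp22a.L and dusp23.L, had 7 tested probe sets between -0.68 and 0.25, of which 0 passed (0 at an unadjusted p under 0.05 in limma). The remaining 5 probe sets of this kind, those of dusp14.L, dusp14.S, dusp19.L, dusp22.S and dusp29.S, lay below the filter at 1.66 to 46.6. Of the probe sets that match by letters alone, fgfr1op2.S, spryd4.S and spryd7.S were tested and 0 passed (0 unadjusted in limma), with values between -0.53 and 0.04, and spryd3.L lay below the filter. Beside these counts, 1.90% of all tested probe sets rose and 2.04% fell.

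Adaptors showed small differences. grb2.L, which encodes the adaptor that brings the Ras activator Sos to the receptor complex, read 524 and 644 with ICD, 585 with DBM and 550 with HMM (0.03 ± 0.23). frs2.L, the docking protein gene, read 1126 and 1524 with ICD, 1190 with DBM and 1035 with HMM on Xl2.17381.1.S2_at (0.24 ± 0.24). Both overlapped between the groups. frs3.S, a paralog, read 23.2 and 40.2 with ICD, 53.8 with DBM and 57.2 with HMM (-0.59 ± 0.34, adjusted p = 0.569). Its mean passed the filter only through DBM and HMM. The 6 adaptor probe sets had a median of 0.01, and 0 passed (0 at an unadjusted p under 0.05 in limma). Among all tested probe sets 1.90% rose and 2.04% fell. flrt3, which encodes a membrane protein that binds FGF receptors, was below the filter on its 3 probe sets. flrt3.S had 40.9 and 55.1 with ICD, 17.3 with DBM and 33.3 with HMM, and the flrt3.L probe set Xl2.29532.1.S2_at had 11.4 and 18.1 with ICD, 22.7 with DBM and 21.8 with HMM, so the copies had opposite orders at low signal.

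Against each array separately, fewer genes passed. Against DBM 0 of 38 probe sets passed, where 2.32% of all tested probe sets did (9 higher and 2 lower at an unadjusted p under 0.05 in limma). Of all 19523 tested probe sets, 872 were higher and 1403 lower than DBM at that unadjusted level. Against HMM 3 rose and 0 fell, where 1.23% of all tested probe sets rose and 0.507% fell. These were both etv1.S probe sets named above, at 1.86 ± 0.30 (3.63-fold, adjusted p = 0.0357) and 1.98 ± 0.34 (adjusted p = 0.0424), and dusp5.S at 1.73 ± 0.29 (3.31-fold, adjusted p = 0.0403). fgf3.L was 2.08 ± 0.44 above DBM (adjusted p = 0.0757) and 2.27 ± 0.44 above HMM (adjusted p = 0.0661). fgfr2.L was 1.18 ± 0.27 above DBM (adjusted p = 0.0968) and 1.36 ± 0.27 above HMM (adjusted p = 0.0716). The comparisons share the ICD arrays, and the differences between them were not tested. For dusp5.S they were 0.41 against DBM and 1.73 against HMM. fgfr4.L ran the other way, at 1.26 against DBM and 0.70 against HMM.

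**Figure D4:**
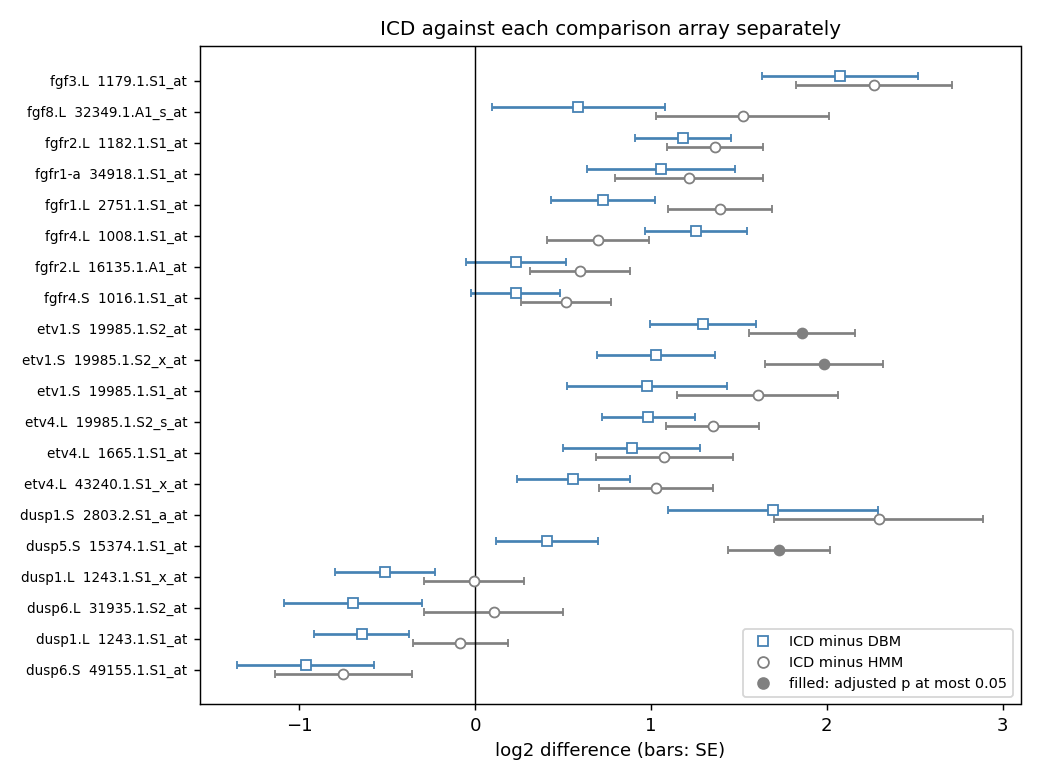
Log2 difference (horizontal axis, bars for the limma SE) of ICD minus DBM (squares) and ICD minus HMM (circles) for ligand, receptor, PEA3 group and ERK phosphatase probe sets. Filled circles passed an adjusted p of 0.05 and belong to etv1.S and dusp5.S; no square is filled.

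DBM and HMM, with 1 array each, were compared without a test. Their arrays also differed in the 3' to 5' signal ratio of the gapdh control, at 1.29 with DBM and 1.61 with HMM. On the ICD arrays this ratio was 1.93 for replicate 1 and 1.303 for replicate 2. ICD replicate 1 and HMM thus had the higher ratios. The part of this ratio in the differences between arrays was not tested. DBM was higher than HMM on 29 of 38 probe sets (76.3%), beside 47.6% of all tested probe sets, with a median log2 difference of 0.25 beside -0.02. It was over 2-fold higher on 1, dusp5.S (1.32), where 3.86% of all tested probe sets were. The next were the etv1.S probe set Xl2.19985.1.S2_x_at (0.96) and fgf8.L (0.93). 0 were over 2-fold lower, where 2.88% of all tested probe sets were. The lowest were dusp12.L at -0.62 and -0.56 on its 2 probe sets and fgfr4.L at -0.56.

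Genes of the pathway outside the rule were counted on separate lists. Of 20 gene symbols of the ERK cascade tested, 0 passed in limma (2 at an unadjusted p under 0.05), where 2.22% of 7989 genes rose and 2.58% fell. The median log2 difference of the 20 was -0.15. They include map2k1.L, the kinase that phosphorylates ERK, at 1595 and 1577 with ICD, 1461 with DBM and 1388 with HMM. Beside the 2.22% of 7989 genes that rose, 1 of 23 symbols for heparan sulfate and other extracellular modulators rose. It was sdc4.L, a syndecan proteoglycan gene, with 4011 and 4038 with ICD, 2017 with DBM and 1656 with HMM (1.13 ± 0.22, adjusted p = 0.0421). Its other copy sdc4.S did not pass (0.34, adjusted p = 0.692). Of 25 symbols known to respond to FGF in frog embryos or other cells, 3 rose and 0 fell, beside 2.22% and 2.58% of 7989 genes, with a list median of 0.23 beside -0.02. phlda2.L, which encodes a pleckstrin homology protein, read 835 and 1440 with ICD, 323 with DBM and 78.2 with HMM (2.62 ± 0.31, adjusted p = 8.49e-03). myc.L, which encodes a growth regulator, read 1125 and 1766 with ICD, 662 with DBM and 264 with HMM (1.71 ± 0.27, adjusted p = 0.0216). Its other copy myc.S overlapped between the groups (0.32, adjusted p = 0.837). lin28a.S, whose product binds RNA, read 639 and 530 with ICD, 289 with DBM and 186 with HMM (1.26 ± 0.25, adjusted p = 0.0442). The ICD arrays of phlda2.L, myc.L and lin28a.S lay above DBM and HMM. The mesodermal FGF target tbxt (Brachyury) overlapped between the groups on tbxt.L, at 15.7 and 65.2 with ICD, 142 with DBM and 55.7 with HMM. For cdx2.L both ICD arrays were lower, at 35.6 and 39.1 with ICD, 192 with DBM and 98.1 with HMM. Neither tbxt.L nor cdx2.L passed the test (limma adjusted p = 0.413 and 0.0589). Their mean ICD signals were under the filter level, so both passed the filter only through DBM and HMM.

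Some markers of neural tissue were higher with ICD as well. Of 12 neural marker symbols tested 4 rose and 0 fell (zic1.S, sox3.S, zic2.L and otx2.L), beside 2.22% and 2.58% of 7989 genes. The other 8 did not pass, among them pax6.L, at 82.2 and 255 with ICD, 831 with DBM and 363 with HMM (log2 difference -1.78), and otx2.S, ncam1.S and tubb2b.S, at 0.09 to 0.20. The summed signal of the 12 was 5952 and 10610 on the ICD arrays, 3596 with DBM and 2285 with HMM. The neural markers en2 and rax were below the filter. Of 6 mesoderm symbols tested 1 rose, not.L, beside 2.22% of 7989 genes. The summed signal of the 6 was 686 and 772 with ICD, 426 with DBM and 252 with HMM. Much of that sum with ICD came from not.L, at 491 and 379 with ICD, 64.8 with DBM and 30.2 with HMM. Of the others, not.S and wnt8a.L were higher with ICD without passing, and tbx6.L, tbxt.L and tbxt.S overlapped between the groups. The means of not.S and wnt8a.L reached the filter only through the ICD arrays, the group where they are high. Of 10 endoderm symbols 4 fell (gata4.S, gata5.S, gata6.S and hhex.L) and 1, foxa2.L, rose, beside 2.58% and 2.22% of 7989 genes. Among the other copies, gata5.L overlapped between the groups (log2 difference -0.14). gata4.L and gata6.L were lower with ICD without passing the test, and their ICD signals were under the filter level. The summed signal of the 10 was 774 and 1250 with ICD, 2083 with DBM and 1649 with HMM. foxa2.L read 292 and 655 with ICD, 22.97 with DBM and 8.8 with HMM, and passed the filter only through the ICD arrays. gata6.S read 40.02 and 24.6 with ICD, 355 with DBM and 356 with HMM. hhex.L read 16.4 and 10.2 with ICD, 113 with DBM and 129 with HMM. Both gata6.S and hhex.L passed the filter only through DBM and HMM, the groups where they are high. gata4.S and gata5.S were above the filter level on every array. The part of these cell type markers in the differences of the FGF pathway genes was not tested.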

How the data were processed

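The deposited values are MAS5 signals per the submitters' processing notes (no MAS5 version is stated): a linear intensity for each probe set on each array, without a detection call. After 96 control probe sets were left out of 32635, symbols came from the platform annotation, in which 279 probe sets had several and 16765 none. Each array was rescaled to the common 2% trimmed mean of 329.6, and values were put on log2(signal + 17.99), with an offset equal to 0.25 of the median signal. Testing kept the 19523 probe sets whose mean signal reached 41.4, the 40th percentile. limma 3.58.1 in R 4.3.3 fitted 1 mean per injected RNA (lmFit, then eBayes with a trend on intensity), and two-sided p-values were Benjamini-Hochberg adjusted over all tested probe sets, with a threshold of 0.05. The fit has 1 residual and 5.82 prior degrees of freedom, so the spread of the ICD pair stands in for that of the lone DBM and HMM arrays. The number of arrays limits the precision. Other lists used the probe set with the highest mean signal per symbol.

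Named members are those past the threshold in any contrast, those above the filter in the ligand, receptor, adaptor, PEA3 group and ERK phosphatase roles, and the 3 highest and lowest in DBM against HMM. Genes of the pathway outside the rule are named where they passed. The remaining named genes, map2k1.L, sdc4.S, tbxt.L, cdx2.L, the cell type markers and the members below the filter or in other roles, were chosen after their values were seen. The members and lists were chosen with earlier results of these data known. No promoter motifs were searched. The pipeline was tested on simulated data with independent noise on each array. Differences shared between pairs of arrays, described at the end, were not simulated, so that test does not bear on the calls here. Plots used matplotlib 3.10.9 under Python 3.11.15.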

Additional observations from a re-analysis of the deposited data

How the results depend on the processing

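No paired analysis was possible because the groups share only replicate number 1. For ICD against the DBM and HMM average, the 5 called probe sets became 2 with no filter on low signal (fgf3.L and Xl2.19985.1.S2_at of etv1.S), 1 without the intensity trend (fgf3.L), 2 with DBM and HMM as 1 group (fgf3.L and Xl2.1182.1.S1_at of fgfr2.L) and 0 on deposited signals without rescaling, where 0 had an unadjusted p under 0.05 in limma and 0 of all 19523 probe sets passed. Leaving out 1 array gave 0 to 3: 3 without DBM, 0 without HMM (11 at an unadjusted p under 0.05) and 0 without either ICD array, the other arrays then forming 1 group (12 unadjusted without ICD replicate 1 and 8 without ICD replicate 2). Without DBM the called probe sets were those of dusp5.S and etv1.S, dusp5.S being the 1 probe set that newly passed. Against HMM, the 3 calls became 1 with the offset at 1 times the median, 0 unfiltered (18 at an unadjusted p under 0.05 in limma), 0 without rescaling (0 unadjusted), 0 without the trend (13 unadjusted) and 5 with quantile normalization. Against DBM, 0 calls became 1, fgf3.L, with quantile normalization. The 5 called probe sets kept a positive log2 difference in every alternative that tested them; fgf3.L fell under the filter at the 60th percentile. The median of the ERK phosphatases was 0.05 without DBM, and the adaptor median was -0.60 without rescaling and -0.16 without ICD replicate 2. The causes of these changes were not tested. Low signal limits the ligands and Sprouty genes, most of which lie below the filter.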

Other observations

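ICD replicate 2 was above ICD replicate 1 on 25 of the 38 tested probe sets (65.8%), beside 53.2% of all tested probe sets, and on 6 of 6 PEA3 group and 6 of 6 adaptor probe sets. The difference of ICD replicate 2 from ICD replicate 1 and that of DBM from HMM, which share no array, had the same sign on 30 of the 38 (78.9%), beside 69.5% of all tested probe sets. Across probe sets the Pearson correlation of these differences was 0.50 for the 38, below the 0.64 for all tested probe sets. Probe sets are not independent replicates, and the labels name no clutch or batch. The gapdh 3' to 5' ratio was lower on ICD replicate 2 than on ICD replicate 1, and lower with DBM than with HMM. Its part in these shared differences was not tested.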
